A study of Mus musculus with 4 samples.

Results

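The interferon regulatory factors (IRFs) are a family of transcription factors, and the genes examined are those whose rows in the count table carry the mouse symbols Irf1, Irf2, Irf3, Irf4, Irf5, Irf7, Irf8 and Irf9. All 8 were found among 55487 annotated entries, by matching Ensembl identifiers to GENCODE M21 on GRCm38, and 7 of the 8 passed the filter on low counts that left 13230 genes to test. RNA came from LPC-HRas, a mouse liver cancer cell line, in 2 groups of 2 libraries. The UBXN9-overexpressing group (libraries UBXN9 1 and UBXN9 2) carried extra UBXN9, a UBX-domain protein encoded by Aspscr1, and the control group (control 1 and control 2) was the same line without it. Both groups were labelled unstimulated, which is read here as no added interferon or other stimulus. The vector, its promoter, what the control cells received and whether the lines were clones are not given in the sources used here.

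IRF proteins share an N-terminal DNA-binding domain with conserved tryptophans that reads GAAA-containing elements, the core of the interferon-stimulated response element (ISRE). IRF3 and IRF7 wait in the cytoplasm until the kinases TBK1 and IKK-epsilon phosphorylate them, and then switch on type I interferon genes. IRF9 gives ISGF3, the factor that answers interferon, its DNA-binding subunit, while IRF1 activates and IRF2 competes at overlapping sites. IRF5 drives inflammatory cytokine genes in myeloid cells, and IRF4 and IRF8 act mainly in lymphoid and myeloid lineages. In the liver IRF genes are best known from antiviral defence. RNA levels say nothing of phosphorylation, so what follows concerns transcripts.

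Library totals were between 21814969 and 26292686 estimated counts. Aspscr1 had 391.6 and 380.0 CPM in UBXN9 1 and 2, against 92.1 and 115 CPM in control 1 and 2, a 3.72-fold rise (edgeR adjusted p = 0.00144). CPM here means TMM-scaled read number relative to the size of the library. Of the liver progenitor and biliary markers, Spp1 and Sox9 were abundant, but Epcam, Krt7 and Krt8 stayed under 1 CPM and Prom1 was at 0 in all 4 libraries. The 3 others fell in UBXN9-overexpressing cells, so that 3 of 6 tested markers were lower (50%), beside 2.38% of all genes. The other tested markers, Spp1, Sox9 and Krt8, were not called, with log2 fold changes of 0.29, 0.23 and -0.54 (edgeR adjusted p = 0.478, 0.447 and 0.643). Krt18 had 0.348 and 0.113 CPM in UBXN9 1 and 2, against 2.67 and 2.99 CPM in control 1 and 2 (edgeR adjusted p = 0.00972, log2 fold change from -4.58 to -3.00 with a library left out). With 7 and 3 counts in UBXN9 1 and 2, it passed the filter on low counts only through control, so its call is a description. Krt19 and Cd24a had log2 fold changes of -1.69 and -1.05 (edgeR adjusted p = 0.0294 and 0.0102, and 0.143 and 0.0523 without control 2). The part of these 3 falls in the IRF values was not tested. Of 8 hepatocyte markers 7 stayed under 1 CPM, with Alb, Serpina1a and Tat at 0, so the labelled liver origin rests here on few markers. No label says that libraries of one group came from separate cultures, so the spread behind each p may be technical. With 2 libraries a group, the smallest two-sided p of an exact permutation test is 0.333.

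UBXN9-overexpressing cells held more RNA of Irf1, Irf2, Irf5, Irf7 and Irf9 than control cells. Of the 7 members tested, 5 rose and 0 fell at an adjusted p under 0.05 (edgeR quasi-likelihood test, Benjamini-Hochberg over all genes). Across all 13230 genes 7.44% changed, 5.06% higher and 2.38% lower. The groups did not overlap in 6 of the 7 members, Irf3 being the exception, and did not overlap in 50.6% of the genes tested. The median log2 fold change was 1.04 over the 7 members and -0.0056 over all genes. Irf8 passed the filter only through its control counts, so these counts describe the members that could be tested and not the family. Irf4 was too low to test. Without control 2 the number that rose was 3, namely Irf1, Irf5 and Irf7.

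**Figure D1:**
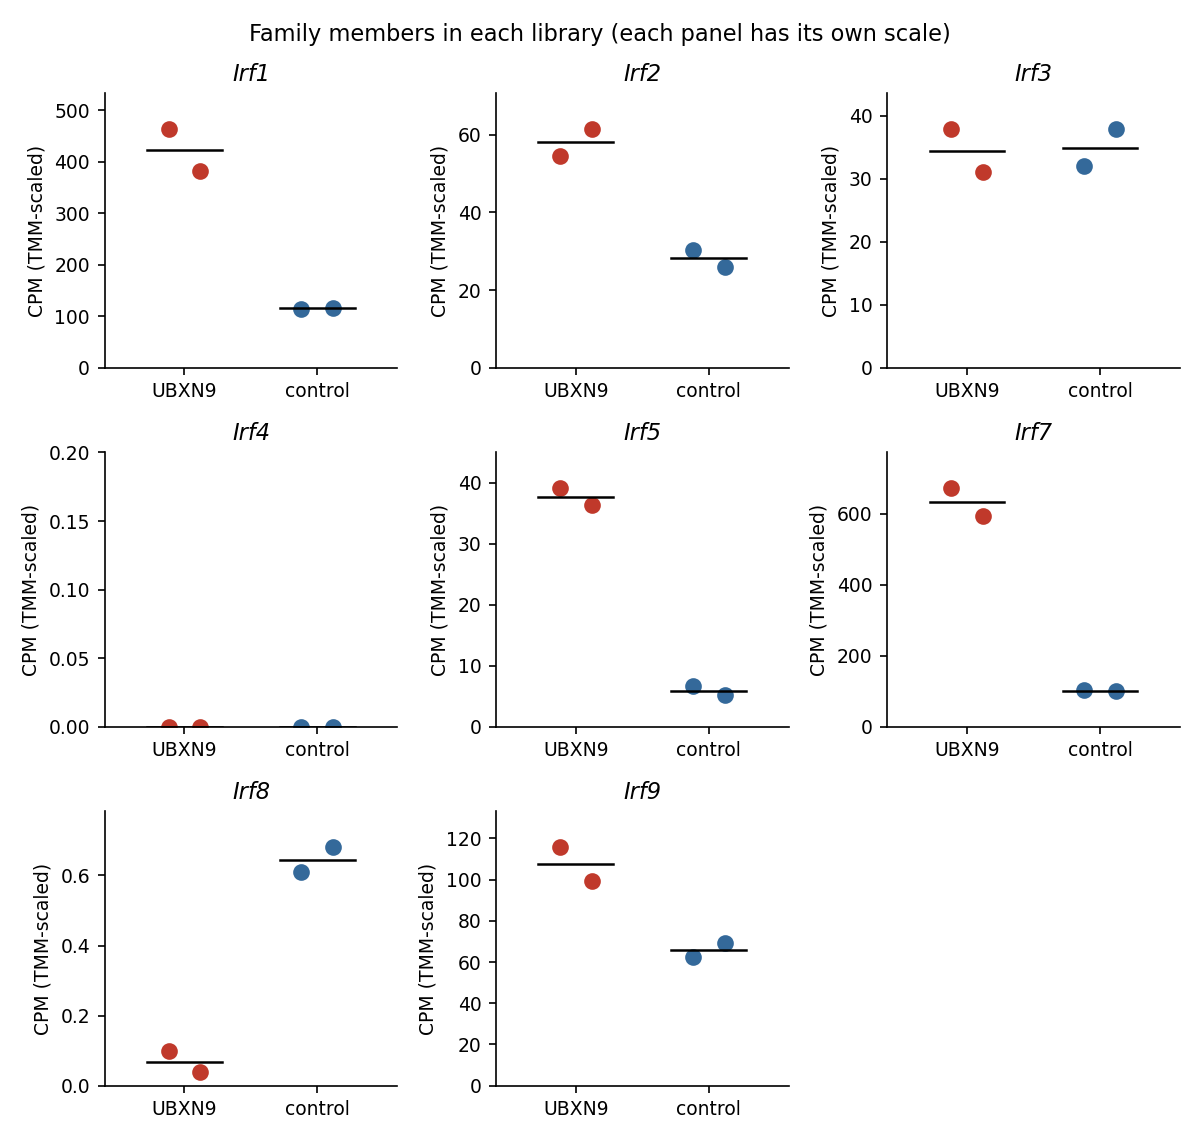
TMM-scaled CPM of the 8 family members in each library, with a linear axis from 0 in every panel; dots are libraries (UBXN9 1 and 2 in red, control 1 and 2 in blue) and lines are group means. Irf1, Irf2, Irf5, Irf7 and Irf9 lie higher in both UBXN9 libraries than in either control, Irf3 shows overlapping groups, and Irf8 lies under 1 CPM with its higher values in control.

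Irf7, the inducible driver of type I interferon genes (ENSMUSG00000025498, chromosome 7, 141262706 to 141266481, minus strand), had 672 and 593 CPM in UBXN9 1 and 2, against 103 and 100.5 CPM in control 1 and 2. The groups lay far apart, and libraries within a group differed little. Its log2 fold change was 2.64 (SE 0.17, 95% interval 2.22 to 3.05), a 6.22-fold rise (edgeR adjusted p = 0.000389), and it kept its call in all 13 alternative settings, where the log2 value ran from 2.54 to 2.73. The last exons share 45 bases with Phrf1 on the opposite strand, and Phrf1 had 109 ± 2.21 CPM in UBXN9-overexpressing and 126 ± 12.2 CPM in control cells (SD, n = 2 each; edgeR adjusted p = 0.504). The counting is not stated to use strand, so reads from such a pair cannot be told apart where they overlap.

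The RefSeq promoter window of Irf7, 250 bases before to 50 after the annotated start (GRCm38.p6, chr7:141266375-141266674, minus strand), is shown because this member and Irf5 had the largest fold rises. It stays in lower case because none of the 4 motifs searched was found: the ISRE core GAAANNGAAA, the IRF core AANNGAAA that lies within it, the GAS element TTCNNNGAA of interferon gamma responses, and the NF-kB motif, each on both strands. These letters occur in 3.44%, 23.9%, 8.3% and 7.55% of the 32851 mouse windows of this length.
Irf7: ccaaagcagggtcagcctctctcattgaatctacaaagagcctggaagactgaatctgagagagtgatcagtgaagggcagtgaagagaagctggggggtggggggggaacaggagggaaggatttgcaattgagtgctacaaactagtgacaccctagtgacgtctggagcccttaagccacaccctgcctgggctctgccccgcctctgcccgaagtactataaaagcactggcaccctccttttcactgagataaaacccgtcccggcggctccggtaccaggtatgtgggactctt

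Irf5, which drives cytokine genes downstream of Toll-like receptors (ENSMUSG00000029771, chromosome 6, 29526625 to 29541871), had 39.1 and 36.3 CPM in UBXN9 1 and 2, against 6.64 and 5.13 CPM in control 1 and 2. Both UBXN9 libraries exceeded both controls. The rise was 6.39-fold, with a log2 fold change of 2.68 (SE 0.22, 95% interval 2.16 to 3.19, edgeR adjusted p = 0.000768), and it too was called in all 13 settings. Its 3' end overlaps Tnpo3, a nuclear import receptor gene on the opposite strand, over 411 exonic bases. Tnpo3 stood at 96.6 ± 8.72 CPM in UBXN9-overexpressing and 108 ± 7.35 CPM in control cells (SD, n = 2 each; edgeR adjusted p = 0.635), well above Irf5 in every library. The single RefSeq window of Irf5 held none of the 4 motifs.

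Irf1, an activator that is rapidly induced by interferon gamma (ENSMUSG00000018899, chromosome 11, 53770014 to 53778374), had 463 and 381 CPM in UBXN9 1 and 2, against 115 and 116 CPM in control 1 and 2. The control libraries were nearly equal, and UBXN9 1 was the higher of the UBXN9 libraries. The log2 fold change was 1.87 (SE 0.17, 95% interval 1.46 to 2.29), a 3.67-fold rise (edgeR adjusted p = 0.00136), called in all 13 settings. Gm17334, on the opposite strand with 135 shared exonic bases, had 3.93 and 4.71 CPM in UBXN9 1 and 2, against 1.49 and 0.817 CPM in control 1 and 2 (edgeR adjusted p = 0.0318, and 0.18 without control 2).

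Irf2, the competitor of IRF1 at shared elements (ENSMUSG00000031627, chromosome 8, 46739732 to 46847458), had 54.7 and 61.5 CPM in UBXN9 1 and 2, against 30.4 and 25.9 CPM in control 1 and 2. The groups did not overlap. The rise was 2.06-fold, with a log2 fold change of 1.04 (SE 0.17, 95% interval 0.63 to 1.46, edgeR adjusted p = 0.0147). The adjusted p was 0.176 without control 2 and 0.0539 with library size as the sole scaling. Genes of chromosome 8 were shifted as a whole, with a median log2 fold change of 0.31 over the 731 others tested there, and Irf2 lay 0.73 above that median. The part of the chromosome shift in the rise of Irf2 was not tested.

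The promoter windows of Irf1 and Irf2 are shown because they hold, in one family, elements through which interferon gamma, NF-kB and the IRFs themselves are known to act. Capitals mark the ISRE core, GAS and NF-kB matches. In Irf1 (GRCm38.p6, chr11:53769764-53770063, plus strand) a GAS element spans bases -90 to -82, counted with -1 as the base before the start, and an NF-kB motif spans -13 to -4. In Irf2 (chr8:46739495-46739794, plus strand) the ISRE core lies at -241 to -232, IRF core matches, not capitalised on their own, at -245 to -238 and -239 to -232, a GAS element at -224 to -216, and overlapping NF-kB matches run from -18 to -8. Irf2 was the one member with an ISRE core match, among 11 windows of 8 members, and the other window of Irf1 had no match. Both windows of Irf9 (chr14:55603735-55604034 and chr14:55604329-55604628, plus strand) begin after the GENCODE start of that gene at 55603571. No base before that start was searched, so the lack of a match in Irf9 covers these windows only. A match is a description of letters and was not tested for binding.
Irf1: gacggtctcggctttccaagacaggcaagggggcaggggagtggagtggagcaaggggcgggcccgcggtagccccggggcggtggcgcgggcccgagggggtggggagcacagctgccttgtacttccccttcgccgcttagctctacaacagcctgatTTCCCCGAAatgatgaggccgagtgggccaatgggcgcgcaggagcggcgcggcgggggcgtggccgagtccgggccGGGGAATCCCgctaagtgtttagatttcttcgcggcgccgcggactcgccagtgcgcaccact
Irf2: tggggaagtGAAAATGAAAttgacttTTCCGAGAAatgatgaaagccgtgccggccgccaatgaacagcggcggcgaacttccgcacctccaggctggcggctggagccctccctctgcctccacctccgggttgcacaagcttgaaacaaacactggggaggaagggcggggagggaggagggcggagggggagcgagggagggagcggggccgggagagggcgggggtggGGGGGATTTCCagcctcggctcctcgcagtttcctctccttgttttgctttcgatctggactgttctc

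Irf9, the DNA-binding subunit of ISGF3 (ENSMUSG00000002325, chromosome 14, 55603571 to 55610030), had 116 and 99.4 CPM in UBXN9 1 and 2, against 62.4 and 69.0 CPM in control 1 and 2. It was the smallest of the 5 rises, 1.64-fold, with a log2 fold change of 0.71 (SE 0.16, 95% interval 0.33 to 1.10). The edgeR adjusted p of 0.0467 lay close to the threshold. It was 0.0546 with upper-quartile factors. The call was also lost without control 1 and without control 2, where the log2 fold change was 0.63 and 0.78. Irf9 was called in 8 of the 13 alternatives. These include a crossed pairing of libraries that was added after the data were seen. Irf9 shares 123 exonic bases on the same strand with Rnf31, a subunit of the linear ubiquitin ligase, which had 90.6 ± 5.06 CPM in UBXN9-overexpressing and 51.1 ± 1.49 CPM in control cells (SD, n = 2 each). Rnf31 rose 1.77-fold (edgeR adjusted p = 0.0214, and 0.17 without control 1 and 0.272 without control 2), and reads in the shared stretch cannot be told apart.

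Irf3, the constitutive partner of IRF7 in interferon beta induction (ENSMUSG00000003184, chromosome 7, 44997648 to 45002848), had 37.8 and 31.0 CPM in UBXN9 1 and 2, against 32.1 and 37.8 CPM in control 1 and 2. The groups overlapped. Its log2 fold change was -0.02 (SE 0.19, edgeR adjusted p = 0.971), and the 95% interval from -0.47 to 0.42 leaves room for a change of moderate size in either direction. The intervals of Irf1, Irf2, Irf5 and Irf7 lay wholly above that of Irf3, whereas that of Irf9 overlapped it. Differences between members were not tested as such.

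**Figure D2:**
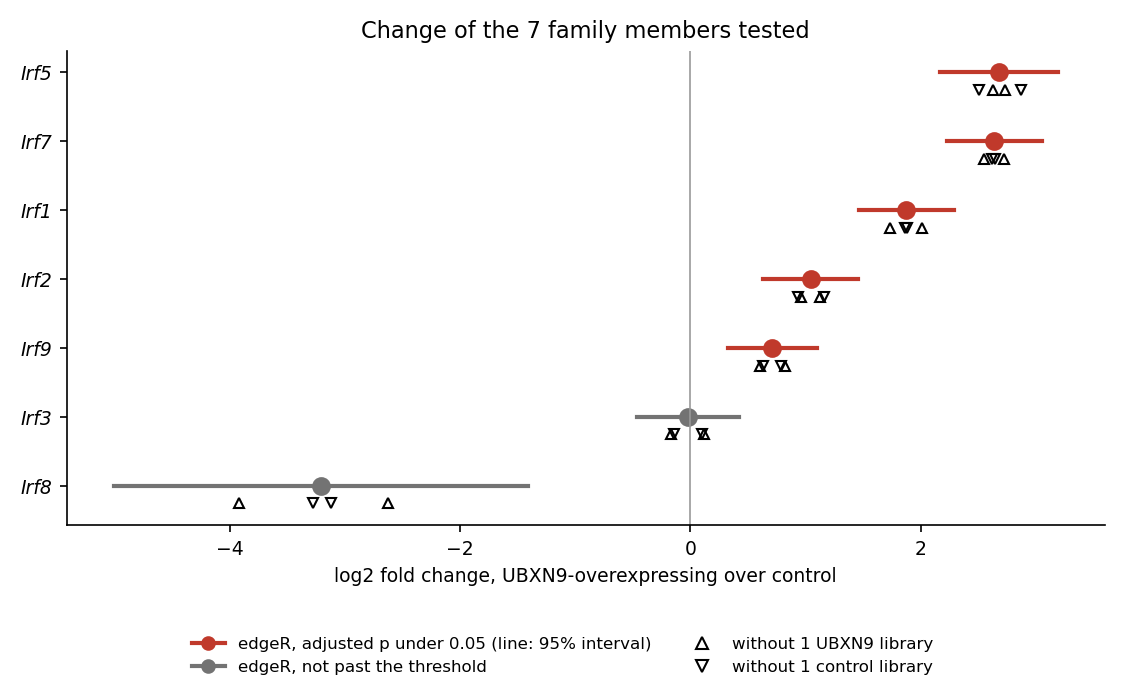
Log2 fold change of UBXN9-overexpressing over control cells for the 7 members tested, as points with 95% intervals from edgeR; triangles below each point are the values with 1 library left out. Irf5, Irf7 and Irf1 lie at or above 1.73 in every such fit, Irf3 straddles 0, and Irf8 has the widest interval, from -5.01 to -1.41.

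Irf8, a factor of myeloid and B cell development (ENSMUSG00000041515, chromosome 8, 120736358 to 120756694), was detected at very low levels. It had 2 and 1 counts in UBXN9 1 and 2, against 16 and 15 counts in control 1 and 2. Every UBXN9 count lay under every control count. The depth-scaled ratio of UBXN9-overexpressing to control cells was 0.100, with an exact 95% interval for counting error of 0.0196 to 0.321. That interval pools the libraries of a group and leaves out the variation between them. Irf8 was tested only because its control counts passed the filter, so the ratio is a description. With edgeR the log2 fold change was -3.21 (SE 0.76) and did not pass (adjusted p = 0.0523). Over the alternatives the log2 fold change ran from -3.92 to -2.63, and the call changed with the library left out. In fits of all 4 libraries the edgeR adjusted p was 0.0205 with no filter, 0.0521 with upper-quartile factors and 0.0617 with library size as the sole scaling. The limma-voom adjusted p was 0.0419. With edgeR, 2 fits that paired libraries gave 0.0315 by number and 0.0137 by a crossed pairing added after the data were seen. The number is not taken as a pairing here. In bulk RNA fewer expressing cells and less RNA per cell cannot be told apart. Its chromosome 8 neighbours within 5 Mb had a median log2 fold change of 0.31, so Irf8 lay below and Irf2 above the median of their surroundings.

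The upstream promoter window of Irf8 (GRCm38.p6, chr8:120736108-120736407, plus strand) is shown beside that of Irf1 because both hold GAS elements. The matches, in capitals, span -171 to -163 and -153 to -145.
Irf8: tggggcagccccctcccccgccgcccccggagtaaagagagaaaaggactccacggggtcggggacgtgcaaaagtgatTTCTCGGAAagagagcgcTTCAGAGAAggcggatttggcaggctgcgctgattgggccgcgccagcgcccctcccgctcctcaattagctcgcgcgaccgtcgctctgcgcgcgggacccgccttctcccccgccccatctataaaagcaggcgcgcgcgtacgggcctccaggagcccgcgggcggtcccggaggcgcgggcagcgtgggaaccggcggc

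Irf4, a lymphocyte factor, had 0 counts in all 4 libraries, which allows levels of up to 0.113 to 0.149 CPM, depending on the library. Markers of the cells in which Irf4, Irf5 and Irf8 are usually studied were scarce. Of 12 lymphoid markers 11 stayed under 1 CPM, with Cd3e, Cd8a, Ncr1 and Nkg7 at 0, and the exception, Sdc1, is also made by epithelial cells. Without Sdc1 their summed level was 0.398 and 0.189 CPM in UBXN9 1 and 2, against 0.0763 and 0.136 CPM in control 1 and 2. Of 12 myeloid markers 9 stayed under 1 CPM, Ptprc and Spi1 among them, and 3 could be tested. Their summed level was 14.2 and 10.5 CPM in UBXN9 1 and 2, against 7.17 and 7.21 CPM in control 1 and 2. Cd68, the largest part of the control sums, had 5.72 and 6.52 CPM in UBXN9 1 and 2, against 5.08 and 5.54 CPM in control 1 and 2 (edgeR adjusted p = 0.709). UBXN9 1 stood apart from the other libraries, with 56 counts of Csf1r, against 8 in UBXN9 2 and 12 and 14 in control 1 and 2, and 16 counts of Tyrobp, against 0 in UBXN9 2 and 1 and 0 in control 1 and 2. Csf1r shares 873 exonic bases with Hmgxb3 on the opposite strand, so its counts may include reads of that gene. Lyz2 rose 3.53-fold (edgeR adjusted p = 0.0408, and 0.283 without control 2). The part of such cells in the Irf5 and Irf8 values was not tested.

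Dividing CPM by the length of all exons allows members to be set side by side as levels. In UBXN9 1 and 2 the family summed to 348 and 301 CPM per kb, against 83.4 and 84.9 CPM per kb in control 1 and 2. Among the 6 members above 1 CPM, the order in UBXN9-overexpressing cells was Irf7, Irf1, Irf9, Irf5, Irf3 and Irf2, with mean levels of 167, 106, 19.97, 13.0, 10.00 and 7.85 CPM per kb. In control cells it was Irf1, Irf7, Irf9, Irf3, Irf2 and Irf5, with mean levels of 29.0, 26.9, 12.2, 10.2, 3.81 and 2.02 CPM per kb. No neighbours in either order overlapped between libraries on this length. With the longest transcript as the length, Irf7 overlapped Irf1 and Irf3 overlapped Irf5 and Irf2 in UBXN9-overexpressing cells, and Irf3 overlapped Irf9 in control cells. Which member leads in UBXN9-overexpressing cells therefore depends on the length chosen.

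The make-up of the family also differed between the groups. Irf7 made up 51.2% and 52.1% of the summed level per kb in UBXN9 1 and 2, against 32.6% and 31.4% in control 1 and 2. Irf1 held 33.5% and 31.8% in UBXN9 1 and 2, against 34.6% and 34.3% in control 1 and 2, and was thus about as large a part of a larger whole. Irf3 made up 3.16% and 2.99% in UBXN9 1 and 2, against 11.2% and 12.9% in control 1 and 2. Irf9 also took a smaller share, 6.18% and 6.13% in UBXN9 1 and 2, against 13.9% and 15.1% in control 1 and 2. As ratios of levels per kb, Irf7 over Irf3 was 16.2 and 17.4 in UBXN9 1 and 2, against 2.92 and 2.42 in control 1 and 2. Irf1 over its competitor Irf2 was 15.7 and 11.5 in UBXN9 1 and 2, against 7.002 and 8.32 in control 1 and 2. Both ratios were higher in each UBXN9 library than in either control, and the direction does not depend on the lengths. These ratios are descriptions without a test. The shares and ratios above use the length of all exons. With the longest transcript, Irf7 held 41.16% and 42.15% in UBXN9 1 and 2, against 24.74% and 23.75% in control 1 and 2. Irf1 then held 42.99% and 41.11% in UBXN9 1 and 2, against 41.89% and 41.44% in control 1 and 2.

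**Figure D3:**
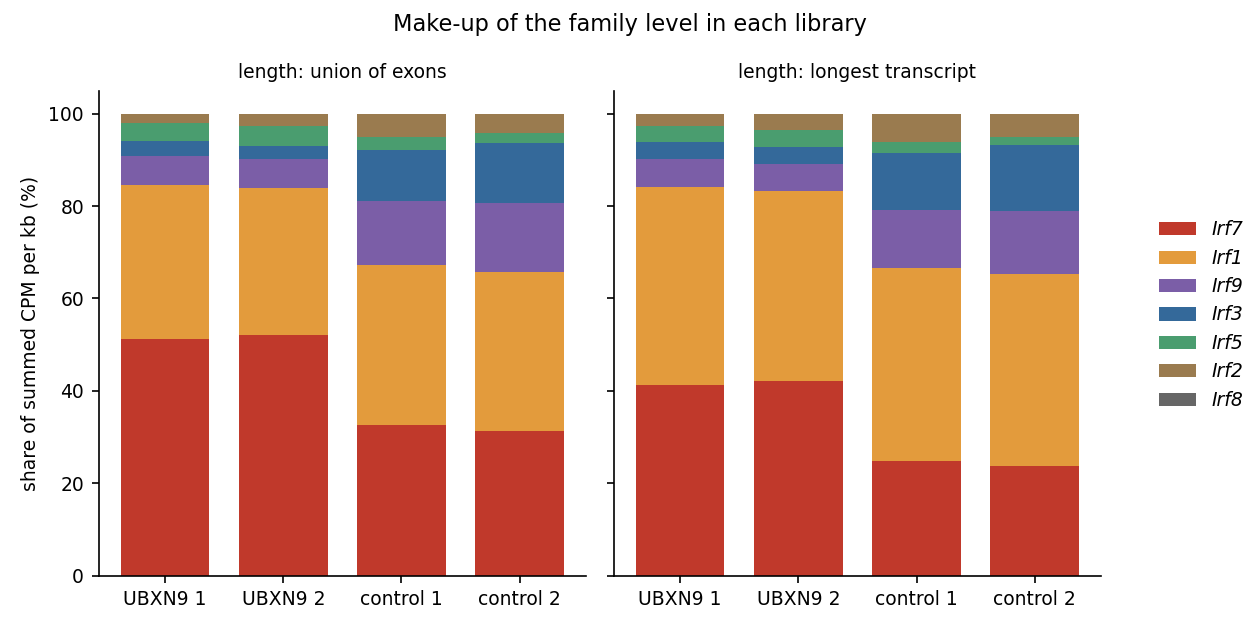
Share of each member in the family's summed CPM per kb, in percent, for UBXN9 1 and 2 and control 1 and 2, with length as the union of exons (left) or the longest transcript (right). Irf7 takes a larger share in both UBXN9 libraries under either length, and Irf3 and Irf9 take smaller shares. Irf7 holds 51.2% and 52.1% against 32.6% and 31.4% on the left. On the right it holds 41.16% and 42.15% against 24.74% and 23.75%.

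The members lie on 6 chromosomes, and the 5 that rose lie on different ones. Among genes within 5 Mb, 1 of 40 around Irf5 was called higher and 1 lower, and 3 of 90 around Irf7 were higher and 4 lower. Around Irf2 3 of 24 were higher and 0 lower, around Irf1 16 of 94 higher and 1 lower, and around Irf9 10 of 105 higher and 5 lower. Over all genes 5.06% were higher and 2.38% lower. The median log2 fold change of these neighbours was 0.0037 around Irf1, -0.09 around Irf7, -0.1 around Irf5, -0.1 around Irf9 and 0.35 around Irf2. Irf1 thus stood apart from the median of its neighbourhood by nearly the whole of its own change. Irf5 and Irf7, whose neighbours had negative medians, stood apart by slightly more than theirs. The nearest tested genes to Irf1, Gm17334 and Gm12216, were also higher, with log2 fold changes of 1.89 and 2.36. The next nearest, Rad50 and Slc22a5, were not called, with values of 0.02 and -0.04. The part of the neighbourhood in the rise of Irf1 was not tested.

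**Figure D4:**
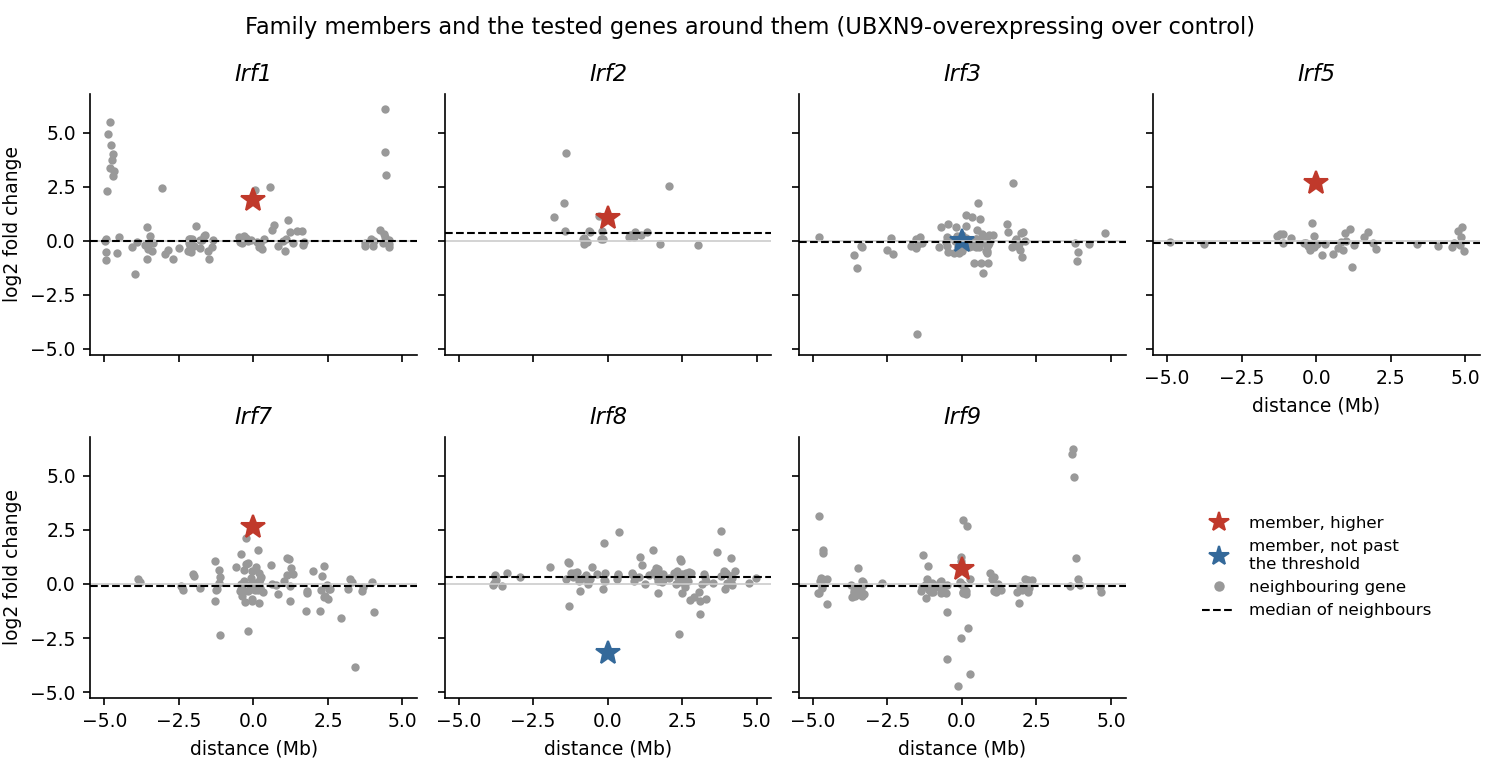
Log2 fold change (UBXN9-overexpressing over control) of each tested member (star) and of the tested genes within 5 Mb of it (grey dots), by distance in Mb between gene midpoints; the dashed line is the neighbours' median. The medians lie near 0 around Irf1, Irf3, Irf5, Irf7 and Irf9, and at 0.35 and 0.31 around Irf2 and Irf8 on chromosome 8.

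The kinases and adaptors that lead to IRF phosphorylation had 2 of 16 members higher (12.5%) and 1 lower, at a median log2 fold change of 0.14, beside 5.06% higher and 2.38% lower over all genes. Myd88, the adaptor of most Toll-like receptors, rose 2.48-fold to 112 ± 13.2 CPM in UBXN9-overexpressing cells, against 45.2 ± 5.23 CPM in control cells (SD, n = 2 each; edgeR adjusted p = 0.00606). Azi2, a TBK1 adaptor, rose 2.09-fold (edgeR adjusted p = 0.0439, and 0.267 without control 2). Tbkbp1, another TBK1 adaptor, fell by 1.63 on the log2 scale, to 8.46 ± 0.71 CPM in UBXN9-overexpressing cells, against 26.2 ± 2.46 CPM in control cells (SD, n = 2 each; edgeR adjusted p = 0.00482). Tbk1 itself had 33.2 and 32.0 CPM in UBXN9 1 and 2, against 23.3 and 23.2 CPM in control 1 and 2. The groups did not overlap, but the difference missed the threshold (edgeR adjusted p = 0.141).

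Of the partners and co-regulators, 1 of 12 tested rose and 1 fell, near the 5.06% and 2.38% of all genes. Without UBXN9 1 there were 4 higher and 2 lower, and without control 2 there were 1 higher and 0 lower. Stat2, a partner of IRF9 in ISGF3, had 268 and 281 CPM in UBXN9 1 and 2, against 99.4 and 84.2 CPM in control 1 and 2, a 2.99-fold rise (edgeR adjusted p = 0.0023). Ikzf1, a lymphoid factor known as a partner of IRF4 and IRF8, had 0 counts in both UBXN9 libraries, against 18 and 16 counts in control 1 and 2. Taking 3 counts in the UBXN9 group as the floor, it was at least 10.9-fold lower in UBXN9-overexpressing cells (edgeR adjusted p = 0.023, and 0.0646 without control 2). Like Irf8 it was under 1 CPM in every library and passed the filter only through its control counts, so its call is a description. Batf, which pairs with IRF4 and IRF8 in lymphocytes, had 3.29 and 1.62 CPM in UBXN9 1 and 2, against 6.33 and 6.13 CPM in control 1 and 2, a difference that missed the threshold (edgeR adjusted p = 0.0831).

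Genes that restrain IRF or interferon signalling had 3 of 8 higher (37.5%) and 0 lower, beside 5.06% higher and 2.38% lower over all genes. Usp18, which removes ISG15 and blocks the interferon receptor, rose 6.52-fold, Trim21, a ubiquitin ligase for IRF proteins, 3.71-fold, and Socs1, an inhibitor of JAK kinases, 2.48-fold (edgeR adjusted p = 0.000555, 0.00343 and 0.00619).

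Most tested genes known to be driven by IRF3, IRF7, IRF1 or ISGF3 were higher in UBXN9-overexpressing cells. Many of them answer to several IRFs or to other factors, so a list does not show which factor acted. Some of them, such as Casp1, Psmb9 and Cybb, singled out after their counts were seen, passed the filter only through the UBXN9 libraries. The counts of higher members are therefore partly set by the filter, and describe these lists beside the 5.06% of all genes that were higher. Of 9 tested targets of IRF3 and IRF7, 8 rose and 0 fell (88.9%, median log2 fold change 2.48), among them Ifit3, an antiviral protein, 15.0-fold and Rsad2, the antiviral enzyme viperin, 10.0-fold (edgeR adjusted p = 0.000304 and 0.00044). Of 11 tested IRF1 targets, 11 rose (median 3.89), among them the peptide transporter gene Tap1 with 532 and 428 CPM in UBXN9 1 and 2, against 6.14 and 5.81 CPM in control 1 and 2. Of 19 ISGF3 targets, 18 rose and 0 fell (94.7%, median 2.71), with Mx1, an antiviral GTPase, up by 4.46 on the log2 scale and Uba7, the enzyme that activates ISG15, up by 3.33 (each with an edgeR adjusted p of 0.00022). Irf7 and Stat2 are themselves on the ISGF3 list. Myd88, Usp18, Tap1 and Uba7 share exonic bases with another annotated gene, and Ifit3 has a close copy, so their values may include reads of those genes. Of the targets of IRF4, IRF5 and IRF8 in immune cells 5 of 11 could be tested and 2 rose. Cybb, a subunit of the phagocyte oxidase, had 7.76 and 14.3 CPM in UBXN9 1 and 2, against 0.534 and 0.408 CPM in control 1 and 2 (edgeR adjusted p = 0.0015). Tnf rose 3.64-fold (edgeR adjusted p = 0.0282, and 0.112 without control 1 and 0.146 without control 2).

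**Figure D5:**
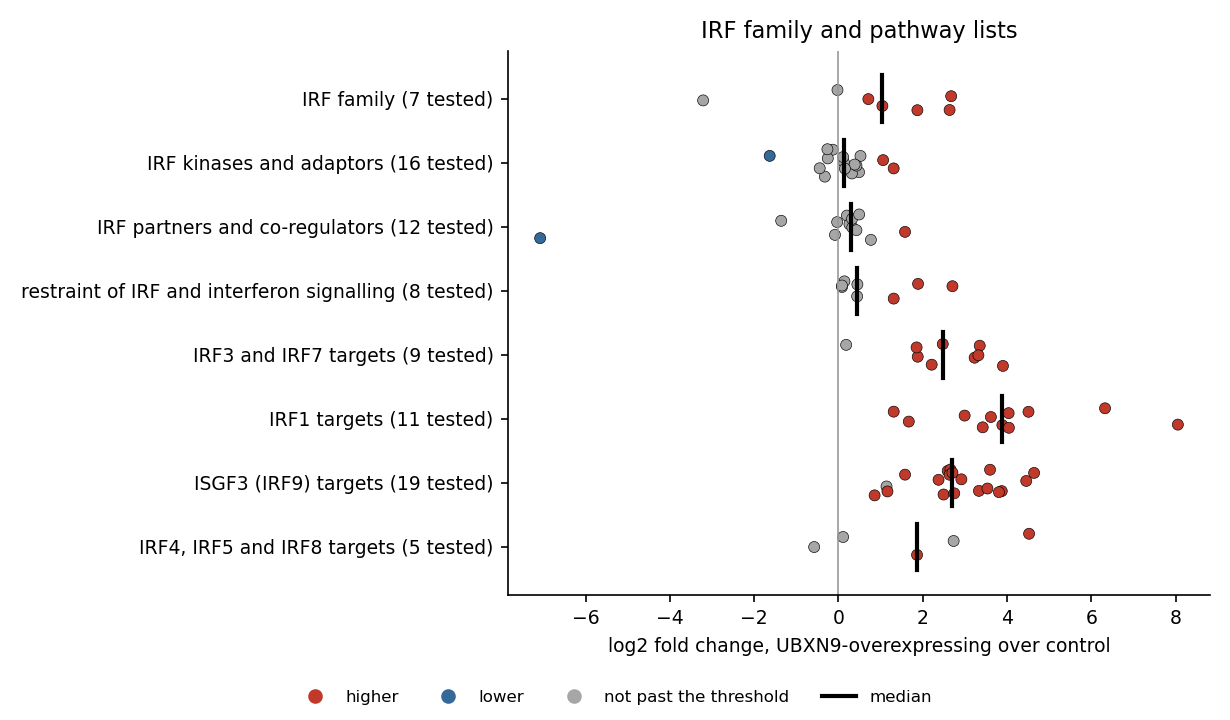
Log2 fold change (UBXN9-overexpressing over control) of the tested members of the IRF family and of 7 pathway lists; red dots are higher and blue dots lower at an edgeR adjusted p under 0.05, and bars are medians. The medians of the target lists lie between 1.87 and 3.89, against 0.14 for the kinases and adaptors and 0.29 for the partners; Ikzf1, plotted at -7.08, had 0 counts in both UBXN9 libraries, so its position depends on the prior count.

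The genes with the profile most like each called member were taken as the 3 with the smallest root mean square difference of centred log2 CPM over the 4 libraries. With 4 libraries this is a description of likeness in these samples only. For Irf1 they were Oas1b, Gm42791 and Pde4b, with differences of 0.0413 to 0.0475. For Irf7 they were 2510009E07Rik, Inmt and Ube2l6, from 0.0346 to 0.0536, and for Irf5 Ifi204, Trim12a and Bst2, from 0.0312 to 0.0432. For Irf2 they were Naa25, Rbms2 and Tlr4, from 0.0328 to 0.0481, and for Irf9 Atg7, Smad6 and Wdr36, from 0.0181 to 0.0278. Smad6 was not itself called (edgeR adjusted p = 0.193). Inmt had 15 and 18 counts in UBXN9 1 and 2, against 1 and 1 counts in control 1 and 2. It thus passed the filter on low counts only through UBXN9-overexpressing cells. By edgeR Inmt rose 15.3-fold and Irf7 6.22-fold, so their fold changes were not alike. The log2 CPM values were taken with a prior count of 2, and the small difference between Inmt and Irf7 depends on it. Oas1b, Ube2l6, Ifi204, Trim12a and Bst2 are known interferon-stimulated genes or belong to families that hold them. The nearest profiles of Irf2 and Irf9 were, apart from Tlr4, genes without a name tied to interferon, such as Naa25, a subunit of an N-terminal acetyltransferase, and Atg7, an autophagy enzyme. Gm42791 and Pde4b near Irf1, and 2510009E07Rik and Inmt near Irf7, also lack such a name.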

How the data were processed

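RNA from LPC-HRas cells was compared in 4 libraries, 2 UBXN9-overexpressing and 2 control. The deposited table holds estimated counts per gene, unscaled and partly fractional; HISAT2 2.1.0, HTSeq and GRCm38.p6 are named in the submitters' processing notes, and settings, annotation and strand are not given in the sources used here. Counts were rounded, and 241 of 55728 entries outside the annotation were left out. Groups were compared with edgeR 4.0.16 (R 4.3.3, TMM, filterByExpr, quasi-likelihood F test, two-sided, Benjamini-Hochberg, threshold 0.05); SEs are the log2 fold change over the root of F. Intervals of fold changes come from that fit; the exact Irf8 interval and floors (3 counts) cover counting error only, and the total per library limits precision as given. limma 3.58.1 and DESeq2 1.42.0 served as alternatives. The procedure was tested on simulated data. Symbols, positions and lengths came from GENCODE M21 and promoter windows from RefSeq, GRCm38.p6. Named genes were Aspscr1, the members, up to 4 members of each list by p, the 3 nearest profiles and markers. Genes overlapping a member, and those nearest to Irf1, were added for their position. Some genes are not reported here. Members and lists were chosen with earlier results of these data known. The figures were drawn with matplotlib 3.10.9.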

Additional observations from a re-analysis of the deposited data

How the results depend on the processing

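Irf1, Irf5 and Irf7 kept their direction and call under all 13 alternatives, and no member that was called changed direction. The family count of 5 called members was 3 with library size as the sole scaling and between 3 and 6 with a library left out. Over all genes, 984 calls became 1827 with no filter, and 508 to 2782 with a library left out, lowest without control 2. Partners and co-regulators had 1 called member with a filter of 5 CPM or DESeq2 and 1 to 6 with a library left out, lowest without control 2, against 2, and the targets of IRF4, IRF5 and IRF8 had 1 with a filter of 5 CPM and 1 to 3 with a library left out, against 2. In those fits the single library of a group is taken to vary as much as the pair. The cause of these shifts was not tested. Libraries sharing a number did not deviate together (correlation of deviations -0.373 across genes), so the number is not taken as a pairing. With a replicate block 932 genes and 5 members were called; Irf9 was not among them (adjusted p = 0.136) and Irf8 was (0.0315). With the crossed pairing, added after the data were seen, 3137 genes were called, 6 kinases and adaptors, 4 partners and 5 restraint genes. Irf8 had no value with the 5 CPM filter, which it did not pass, and no adjusted p from DESeq2. Members under 1 CPM are limited by depth.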
